A study of Mus musculus with 12 samples.

Results

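The comparison set KH2 mouse embryonic stem (ES) cells exposed to retinoic acid (RA) for 2 h against the same cells without RA. Its members were chosen by the labelled RA exposure: 3 arrays at 2 h (replicates A, B and C) and 3 arrays without RA (replicates A, B and C), 6 of the 12 arrays in the series, each read across 18194 named genes. The other arrays were taken after 4 and 6 h of RA, 3 of each. KH2 is an established mouse ES cell line built to carry doxycycline-inducible transgenes, and the labels name no induced transgene, so all groups shared one genotype as far as the labels say. The cells grew on feeder cells, RA was given at 0.3 µM in a differentiation medium of DMEM, serum and non-essential amino acids, and both groups were then trypsinised and held on gelatin before lysis. Because the RA came with that medium, while nothing states that the untreated cells received it, RA and medium cannot be told apart in this design. The labels differ on whether the attached cells or the spun-down medium were lysed. Whether replicates A, B and C came from independent cultures is not stated either. A p-value here therefore reflects only the spread between arrays within groups, taken over all 12 arrays, which may be technical.

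Retinoic acid is a small derivative of vitamin A that enters the nucleus and binds the RA receptors Rara, Rarb and Rarg, which sit on DNA as heterodimers with the retinoid X receptors (RXR). Without ligand the pair recruits corepressors, and with ligand it exchanges them for coactivators, so that genes with a bound response element can be transcribed within minutes to hours. In ES cells and in the embryo RA is known for activating the 3' ends of the Hox clusters and for promoting exit from pluripotency, and cells limit the signal by making the enzymes that destroy it.

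Values are log2 signal, so a difference of 1 is a 2-fold change, and differences are RA 2 h minus no RA each followed by its standard error (SE). A gene was called when its limma p-value, adjusted by Benjamini and Hochberg over all genes, was under 0.05. By that rule 489 of the 18194 genes were called, which is 2.69% of those tested: 273 higher (1.5%) and 216 lower (1.19%) after 2 h. At an unadjusted p under 0.05 there were 3172. The median difference over all genes was 0.0043. In all 489 called genes the 3 RA arrays lay wholly above or wholly below the 3 untreated arrays, which was so for 22.2% of all genes tested, 10.5% with the RA arrays higher and 11.7% with them lower.

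The rises were larger than the falls. The median size was 0.54 among the 273 genes called higher and 0.42 among the 216 called lower. At least 2-fold changes were seen in 46 genes called higher (0.253% of genes tested) and in 4 called lower (0.022%), and at least 4-fold changes in 11 and 0. Of the genes called higher, 49 (17.9%) had all 3 untreated arrays under the median of all deposited values, 6.07, against 8 (3.70%) of those called lower and 34.0% of all genes. At such dim levels background is part of the signal, so the differences given for these genes, Cyp26a1 and Hoxb1 among them, are differences in signal and may understate the change in RNA.

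**Figure D1:**
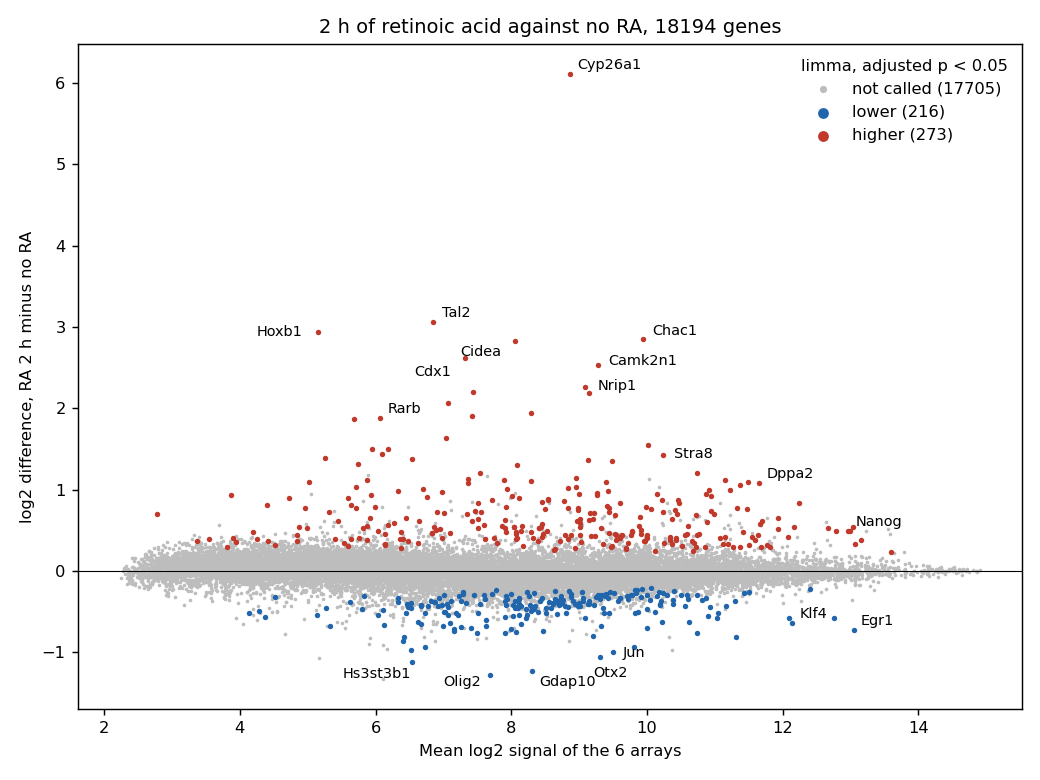
Each point is 1 of 18194 genes, with its mean log2 signal over the 6 arrays on the horizontal axis and its log2 difference (RA 2 h minus no RA) on the vertical axis; red and blue mark the 273 genes called higher and the 216 called lower. Cyp26a1 stands alone at 6.11, the other rises reach 3.06, and no gene called lower goes beyond -1.29.

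The untreated arrays were less alike than the RA arrays, and every difference is taken from them. The median SD of a gene was 0.122 over the 3 untreated arrays and 0.0710 over the 3 arrays at 2 h. Untreated array C stood apart, correlating at 0.993 with both other untreated arrays across genes, while A and B correlated at 0.997 and the 2 h arrays at 0.997 to 0.998. The spread was estimated over all 12 arrays. Where a gene's untreated arrays scatter more than the rest, its SE therefore tends to be smaller than the 6 arrays compared would give. Dhrs3, with an SE of 0.28, had an SD of 0.79 without RA and 0.11, 0.13 and 0.15 at 2, 4 and 6 h. With only the 6 arrays compared, 134 genes were called, 99 higher and 35 lower, and 132 of them were among the 489. Leaving out an RA array gave 219 to 241 calls, and leaving out an untreated array gave 349 without A, 702 without B and 734 without C. A set of 44 genes, 37 higher and 7 lower, was called in the same direction in all 16 alternative fits.

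Among 14369 tested genes with a promoter in the RefSeq table (250 bases before to 50 after the start), a DR5 element, a direct repeat of the RA receptor half-site with a spacer of 5 bases and the classic binding site of the RAR and RXR pair, was found on either strand in 11, or 0.0766%. It was found in 3 of the 221 genes called higher that had a promoter (1.36%) and in 0 of 169 called lower. The 3 were Cyp26a1, Rarb and Ppbp, the last a platelet chemokine named only for this match, whose signal rose by 0.89 ± 0.16 (limma, adjusted p = 0.0135) on arrays that all lay under the median. Of the 33 of the 40 largest rises with a promoter in the table, the first 2 of these were the ones with a DR5. The 100 bases that hold each element are given below on the strand of the gene, from build GRCm38.p6, with the half-sites in capitals. They are shown because Cyp26a1 and Rarb are textbook RA targets and rose here.
Cyp26a1 (chr19:37697708-37697807, plus strand): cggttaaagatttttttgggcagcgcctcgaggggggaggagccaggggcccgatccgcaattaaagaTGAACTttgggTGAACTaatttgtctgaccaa
Rarb (chr14:16575477-16575576, minus strand): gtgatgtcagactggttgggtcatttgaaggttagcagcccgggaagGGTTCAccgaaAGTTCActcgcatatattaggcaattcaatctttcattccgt
In Cyp26a1 the repeat reads in the sense of the receptor site on the opposite strand and spans 32 to 16 bases before the start; in Rarb it reads on the gene's strand, 53 to 37 bases before the start. A match is a description of these letters, and binding was not measured. Closer repeats, with spacers of 2 and 1 bases (DR2 and DR1), were found in 1 (0.452%) and 0 of the 221 promoters, against 14 (0.0974%) and 36 (0.251%) of the 14369.

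Cyp26a1 and Cyp26b1, which break down RA, and Dhrs3, which acts on retinaldehyde, rose. Cyp26a1, the cytochrome P450 that oxidises RA, had signals of 5.64, 5.85 and 5.94 in untreated arrays A, B and C and 12.07, 11.87 and 11.83 at 2 h. It was under the median of all values in every untreated array and among the bright genes in every RA array. The difference was 6.11 ± 0.084 (limma, adjusted p = 9.85e-13; 95% interval 5.93 to 6.29), the largest of all genes. Its relative Cyp26b1 rose by 0.56 ± 0.095 from 6.07, 5.97 and 5.65 to 6.53, 6.43 and 6.42 (limma, adjusted p = 0.00798). Dhrs3, which turns retinaldehyde back into retinol, went from 6.59, 5.63 and 7.19 to 8.31, 8.50 and 8.31, a rise of 1.90 ± 0.28 (limma, adjusted p = 0.00341). Its untreated arrays spread over more than 1 log2 unit, and its lowest RA array was still above the highest of them.

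Of 17 measured genes for RA breakdown, synthesis and binding, these 3 were called higher, 0 were called lower, and the median difference was 0.093. For this and every later list, the share called over all genes tested was 2.69%. List members were chosen with earlier results of these data known, so their counts are descriptions. The binding proteins Crabp1 and Crabp2 were at -0.08 and 0.22 and the retinol importer Stra6 at 0.16, none of them called. The calls of Cyp26b1 and Dhrs3 ended when only the 6 arrays were fitted.

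All 3 RA receptors rose and the RXR genes were not called. Rarb had 5.10, 4.75 and 5.55 without RA and 6.996, 6.848 and 7.177 at 2 h, a rise of 1.88 ± 0.16 (limma, adjusted p = 6.07e-05). Rara rose from 8.50, 8.21 and 8.26 to 9.39, 9.36 and 9.27, by 1.02 ± 0.088 (limma, adjusted p = 5.85e-05), and Rarg from 9.83, 9.41 and 9.53 to 10.45, 10.38 and 10.30, by 0.78 ± 0.10 (limma, adjusted p = 0.00132). In each of the 3 the RA arrays were all above the untreated ones, and Rarb stayed the dimmest of them. Rxra was at 0.12 ± 0.060 and not called.

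Nrip1, a corepressor that binds ligand-loaded nuclear receptors, rose by 2.18 ± 0.13, from 7.88, 7.85 and 8.43 to 10.20, 10.21 and 10.31 (limma, adjusted p = 1.89e-06), and all 6 of its probe sets had the same sign. Nr6a1, the orphan receptor GCNF that represses Pou5f1 in differentiating ES cells, rose from 10.08, 10.01 and 10.03 to 10.90, 10.77 and 10.71, by 0.75 ± 0.064 (limma, adjusted p = 4.70e-05). Of the 5 Nr6a1 probe sets 2 were called higher and 4 were above 0, and the lowest was at -0.16. The coactivator Ncoa7 fell by 0.29 ± 0.064 (limma, adjusted p = 0.0333). In all, 5 of 18 measured receptors and coregulators were called higher and 1 lower, with a median of 0.072. The 5 rises were called with only the 6 arrays too, and the fall of Ncoa7 ended there, without untreated replicate A or B and without any one RA array.

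In the Hoxb cluster a gene near each end rose. Hoxb1, at the 3' side, which patterns the hindbrain, had 3.91, 3.41 and 3.76 in the untreated arrays and 6.64, 6.66 and 6.57 at 2 h, a rise of 2.93 ± 0.17 (limma, adjusted p = 1.89e-06). Its untreated signals were among the dimmest of the array and the 2 h arrays were just above the median of all values. Hoxb13, at the far 5' end of the cluster, rose from 5.25, 5.06 and 5.39 to 6.14, 6.06 and 5.95, by 0.82 ± 0.11 (limma, adjusted p = 0.00175). Those were the 2 called of 9 measured Hoxb genes. All 9 differences were above 0, with a median of 0.52. Among the 7 not called, Hoxb5 at 0.95 ± 0.23 (limma, adjusted p = 0.0558), Hoxb2 at 0.61 ± 0.25 (limma, adjusted p = 0.229) and Hoxb4 at 0.52 ± 0.15 (limma, adjusted p = 0.0945) were the largest, named after their values were seen.

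In Hoxa, 1 of 9 measured genes was called, Hoxa4, at 0.93 ± 0.22 (limma, adjusted p = 0.0439), and the list's median was 0.18. The 3 RA signals of Hoxa4 were 4.34, 4.32 and 4.33 and the untreated ones 3.07, 3.48 and 3.63, all under the median, and the call was lost without any one RA array and without untreated replicate A or B. Hoxa5 was at 1.18 ± 0.33 (limma, adjusted p = 0.0882), with untreated replicate C at 6.00 and the other 2 at 5.06 and 4.82. It was called without replicate C. None of the 15 measured Hoxc and Hoxd genes was called by limma, 0 of them had an unadjusted p under 0.05, and their median was 0.065. However, 11 of these 15 genes were dim, with signals below 6.07 in each of the 6 arrays compared. A change in RNA may be understated at such levels, so the missing calls do not show that these 11 genes were unresponsive.

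Cdx1, a homeobox activator of posterior Hox genes, rose by 2.61 ± 0.13, from 5.96, 6.31 and 5.77 to 8.73, 8.54 and 8.62 (limma, adjusted p = 5.87e-07). The Hox cofactor Meis2 rose by 1.12 ± 0.15 (limma, adjusted p = 0.00170) on its brightest probe set. Of its 4 probe sets, 3 were above 0, and the lowest was at -0.11. Meis1 was at -0.01. Tgif2, a TALE repressor, fell by 0.35 ± 0.057 (limma, adjusted p = 0.00629), and that call ended with only the 6 arrays. In this list 2 of 15 measured genes were called higher and 1 lower, with a median of 0.021.

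Other transcription factors rose with them. Tal2, a basic helix-loop-helix (bHLH) factor of midbrain neurons, was second only to Cyp26a1. Its signals were 5.19, 5.20 and 5.57 without RA and 8.28, 8.40 and 8.47 at 2 h, a difference of 3.06 ± 0.20 (limma, adjusted p = 5.33e-06). Foxa1, a pioneer factor of endoderm and floor plate, rose from 4.40, 4.78 and 5.05 to 6.68, 6.58 and 6.57, by 1.87 ± 0.13 (limma, adjusted p = 9.78e-06). Both went from under the median to above it in every RA array. Tal2 was the 1 gene called higher of 27 measured bHLH and Id genes, where 2 were called lower and the median was -0.11.

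Cidea, Aqp3 and Csn3 were also among the largest rises. Cidea, a lipid droplet protein of brown fat, rose by 2.83 ± 0.14, from 6.43, 6.47 and 7.01 to 9.38, 9.50 and 9.52 (limma, adjusted p = 5.87e-07). Aqp3, a water and glycerol channel, rose by 2.26 ± 0.087, from 8.03, 7.97 and 7.86 to 10.18, 10.11 and 10.34 (limma, adjusted p = 5.79e-08). Csn3, the milk protein kappa-casein, rose by 2.20 ± 0.14, from 6.75, 6.23 and 6.04 to 8.44, 8.64 and 8.53 (limma, adjusted p = 4.57e-06). None of these untreated sets reached the lowest RA array. Cidea and Aqp3 were the 2 called of 24 measured membrane and lipid genes on the list they belong to, whose median was 0.064.

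Tmtc1, an enzyme of protein mannosylation in the endoplasmic reticulum (ER), rose by 1.94 ± 0.070 with tight arrays, 7.45, 7.28 and 7.21 against 9.31, 9.25 and 9.21 (limma, adjusted p = 4.15e-08). Camk2n1, an inhibitor of calmodulin-dependent kinase II, had untreated signals of 7.46, 7.63 and 8.94, replicate C being more than 1 log2 unit above the others, and RA signals of 10.53, 10.48 and 10.61. Its rise was 2.53 ± 0.28 (limma, adjusted p = 4.75e-04), and 2.99 without replicate C. Adgra2, an adhesion receptor that helps Wnt7 signal, rose by 1.64 ± 0.12, and the ecto-enzyme Enpp4 by 1.30 ± 0.17. The cytokine Il33 was at 1.37 ± 0.19 and the thrombin receptor cofactor Thbd at 1.20 ± 0.24. In both, untreated replicate C was the lowest array, and both calls ended with only the 6 arrays, that of Thbd also without any one RA array.

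The rest of the 30 largest rises lay between 1.14 and 2.07. They were Dleu7 (2.07), Eva1a (1.50), 4931406H21Rik (1.50), Prrt3 (1.43), Lrtm2 (1.38), Ier5l (1.37), Medag (1.31), the mitochondrial phosphatase Pptc7 (1.20) and the Cdc42 effector Cdc42ep3 (1.14), besides those described with their lists. Lrtm2 stayed under the median on all 6 arrays. Calls of Dleu7 and Medag ended with only the 6 arrays, and that of Dleu7 also without RA 2 h replicate B.

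**Figure D2:**
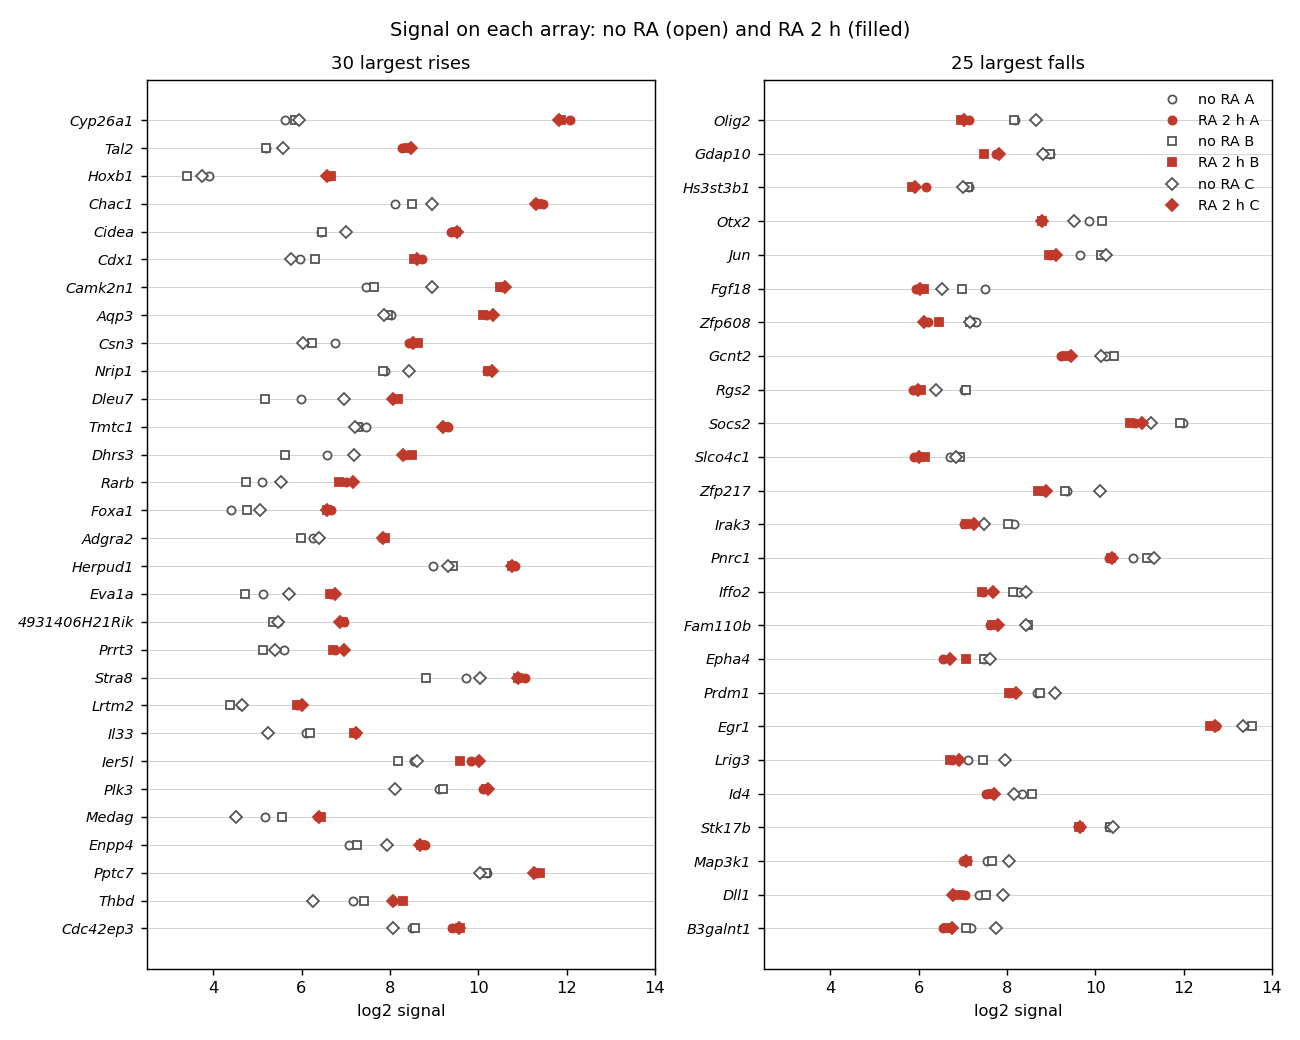
The log2 signal of every array is plotted for the 30 largest rises and the 25 largest falls, with open grey symbols for no RA, filled red symbols for RA 2 h, and circles, squares and diamonds for replicates A, B and C. Genes were picked from those called without overlap, so in each the 3 red symbols lie to one side of the 3 open ones by selection. The open symbols are widely scattered in Dleu7, Dhrs3 and Camk2n1.

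Genes of the amino acid stress response rose as well. Activating transcription factor 4 (Atf4) is translated when amino acids run short or proteins misfold, and drives enzymes of glutathione turnover, amino acid import and synthesis. Chac1, its target that degrades glutathione, had 8.11, 8.50 and 8.95 without RA and 11.47, 11.35 and 11.30 at 2 h, a rise of 2.86 ± 0.17 (limma, adjusted p = 1.89e-06). Trib3, a pseudokinase that feeds back on the pathway, rose from 8.78, 8.89 and 8.87 to 10.02, 9.89 and 9.92, by 1.10 ± 0.081 (limma, adjusted p = 1.41e-05). Atf4 itself rose by 0.49 ± 0.073, from 12.48, 12.68 and 12.46 to 12.97, 13.06 and 13.04 (limma, adjusted p = 0.00416). These groups did not overlap, and Chac1 was already bright without RA. The call of Atf4 ended with only the 6 arrays.

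Of 29 measured members 9 were called higher and 0 lower, with a median of 0.21. The others called were the stress-induced hormone Stc2 (0.95 ± 0.16), the repressor Atf3 (0.93 ± 0.12), the alanine aminotransferase Gpt2 (0.56 ± 0.096), the glycine transporter Slc6a9 (0.53 ± 0.11), Mthfd2 (0.42 ± 0.074) and Cebpb (0.41 ± 0.095). Asparagine synthetase Asns, a standard target, was at 0.04 ± 0.051 on arrays between 12.62 and 12.72, and Ddit3 (CHOP) at 0.16 ± 0.089. Neither was called. With only the 6 arrays, 3 members were called (Chac1, Trib3 and Atf3), and leaving out 1 array gave 4 (without RA 2 h replicate A) to 9.

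Herpud1, which serves ER-associated degradation, rose by 1.55 ± 0.10, from 8.97, 9.44 and 9.31 to 10.84, 10.77 and 10.77 (limma, adjusted p = 4.60e-06). It was the 1 gene called of 19 ER chaperone and unfolded protein genes, whose median was 0.019. Of 13 heat shock genes 0 were called by limma, with 3 at an unadjusted p under 0.05. Among 19 p53 targets 3 were called higher and 0 lower, with a median of 0.18: the kinase Plk3 (1.36 ± 0.21), Gadd45a (0.44 ± 0.10) and Ei24 (0.32 ± 0.070). With only the 6 arrays 0 of the 3 were called. Gadd45a and Ei24 also lost their calls without any one RA array, and untreated replicate C of Plk3, at 8.12, was about 1 log2 unit under A and B.

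Most pluripotency genes were not called, and the calls went in both directions. Over all genes tested, 2.69% were called. Of 27 naive pluripotency genes 3 were called higher and 1 lower, and the median was -0.0052. Dppa2, a chromatin factor of early embryos, rose from 11.36, 11.15 and 10.83 to 12.30, 12.13 and 12.15, by 1.08 ± 0.11 (limma, adjusted p = 1.88e-04). Nanog rose by 0.48 ± 0.077, from 12.69, 12.72 and 12.77 to 13.24, 13.16 and 13.22 (limma, adjusted p = 0.00572). Nr0b1 (Dax1) was at 0.83 ± 0.18 (limma, adjusted p = 0.0306), with untreated replicate C lowest, and lost its call with only the 6 arrays or without any one RA array.

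Klf4 fell by 0.64 ± 0.079, from 12.42, 12.46 and 12.51 to 11.90, 11.80 and 11.76 (limma, adjusted p = 8.87e-04), with the RA arrays all below the untreated ones. The core factor Pou5f1 had 13.22, 13.16 and 13.26 without RA and 13.19, 13.25 and 13.20 at 2 h. Its difference of -0.01 had a 95% interval of -0.12 to 0.11. Sox2 was at -0.17, Esrrb at -0.03, Zfp42 at 0.11 and Tbx3 at 0.17, none of them called.

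In the primed epiblast list, 2 of 15 measured genes were called higher and 1 lower, with a median of 0.037. The de novo methyltransferase Dnmt3a rose by 0.73 ± 0.089 (limma, adjusted p = 8.87e-04), with all 5 of its probe sets above 0, and the ligand Nodal by 0.70 ± 0.11 (limma, adjusted p = 0.00427). The homeobox factor Otx2, which marks epiblast and forebrain, fell by 1.06 ± 0.18, from 9.86, 10.14 and 9.52 to 8.76, 8.79 and 8.79 (limma, adjusted p = 0.00743). Its RA arrays lay close together. Fgf5 was at -0.96 (limma, adjusted p = 0.0934) with untreated signals of 6.95, 7.01 and 5.99 and was called without untreated replicate C. The Nodal call ended with only the 6 arrays.

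The largest fall called was in Olig2, a bHLH factor of motor neuron and oligodendrocyte precursors. Its signals were 8.18, 8.17 and 8.65 without RA and 7.15, 6.95 and 7.03 at 2 h, a fall of 1.29 ± 0.12 (limma, adjusted p = 8.21e-05). Cyp1a1 had a difference of -1.33 that was not called, with untreated signals of 7.58, 7.99 and 4.74. Of 22 neural plate and hindbrain factors, 4 were called lower and 2 higher, with a median of -0.099. Besides Olig2 and Otx2, Sox11 fell by 0.55 ± 0.092 and En2 by 0.40 ± 0.096 (limma, adjusted p = 0.0489), while Nkx6-1 rose by 0.54 ± 0.10 and Sox3 by 0.54 ± 0.11. Sox1, an early neural marker, was at -1.07 (limma, adjusted p = 0.131) with untreated signals of 5.57, 4.93 and 6.59, and Pax6 was at 0.33. The calls of En2, Nkx6-1 and Sox3 ended with only the 6 arrays. They also ended without untreated replicate A and without RA 2 h replicate B.

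Next by size were Gdap10 and Hs3st3b1. Gdap10 went from 8.97, 8.97 and 8.82 to 7.74, 7.49 and 7.82, a fall of 1.24 ± 0.096 (limma, adjusted p = 2.24e-05). Hs3st3b1, a sulfotransferase of heparan sulfate, went from 7.13, 7.13 and 7.01 to 6.17, 5.84 and 5.91, a fall of 1.12 ± 0.11 (limma, adjusted p = 1.46e-04). Its other 3 probe sets were not called, and 1 of them was above 0. Gcnt2, which branches blood group I glycans, fell by 0.93 ± 0.11 (limma, adjusted p = 8.82e-04). All 8 of its probe sets were below 0. Among 23 glycosyltransferases and sulfotransferases these were the 2 called lower, and B3gnt7 was called higher at 1.11 ± 0.18, a call that ended with only the 6 arrays. The median was -0.020.

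Among immediate early genes, which serum and growth factors induce through the kinase ERK, Jun, Egr1 and Fos fell and Atf3 rose. Jun fell by 1.00 ± 0.14, from 9.65, 10.12 and 10.24 to 8.97, 8.94 and 9.10 (limma, adjusted p = 0.00230). Egr1, the brightest of them, fell from 13.35, 13.56 and 13.33 to 12.74, 12.59 and 12.71, by 0.73 ± 0.10 (limma, adjusted p = 0.00250). Fos fell by 0.58 ± 0.11 (limma, adjusted p = 0.0151). Of 29 genes these 3 were called lower and Atf3 higher, with a median of -0.10. Myc was at 0.15 with untreated signals of 9.67, 9.37 and 7.37, so that its 2 h arrays (9.10, 8.97 and 8.78) lay between the untreated ones. Junb was at -0.13. The Fos call ended with only the 6 arrays and without RA 2 h replicate B or C.

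In the FGF pathway, which works through ERK, 4 of 24 measured genes were called lower and 1 higher, with a median of -0.065. The ligands Fgf18, Fgf17 and Fgf15 fell by 0.97 ± 0.20, 0.52 ± 0.12 and 0.46 ± 0.100, and the feedback inhibitor Il17rd by 0.51 ± 0.083. Spred2, another inhibitor of the pathway, rose by 0.76 ± 0.056, from 11.13, 11.16 and 11.01 to 11.89, 11.81 and 11.87 (limma, adjusted p = 1.41e-05). All 5 of its probe sets were above 0, with 1 of them called and the lowest at 0.05. All 4 calls of falls ended with only the 6 arrays, and those of the 3 ligands also without any one RA array. Fgf4, the main FGF of ES cells, was at -0.03. The ERK feedback genes Dusp6 and Spry4 were at 0.24 and 0.30, with untreated replicate C far under the other arrays of both.

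Leukaemia inhibitory factor (LIF) acts through gp130 and Stat3 to hold ES cells in the naive state. Of 16 genes in that pathway 4 were called lower and 1 higher, and 12 lay below 0, with a median of -0.15. Stat3 fell by 0.63 ± 0.084, from 10.63, 10.64 and 10.32 to 9.88, 9.93 and 9.90 (limma, adjusted p = 0.00171). Its targets Socs2 and Bcl3 fell by 0.81 ± 0.16 and 0.41 ± 0.095, and Klf4 is on this list too. Pim1, a kinase that Stat3 also induces, rose by 0.69 ± 0.092 (limma, adjusted p = 0.00171), while Socs3 was at 0.41 and not called. The calls of Socs2 and Bcl3 ended with only the 6 arrays, without untreated replicate A and without RA 2 h replicate A or B. That of Bcl3 ended also without untreated replicate C and without RA 2 h replicate C. That of Stat3 ended with the mean of its 4 probe sets.

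Other signalling lists held 2 to 4 calls each, where 2.69% of all genes tested were called. In Notch, 2 of 19 genes were called lower, the ligand Dll1 (-0.69) and the target Hey1 (-0.44), and 0 higher, with a median of -0.097. With only the 6 arrays limma called 0 of the 19. In bone morphogenetic protein (BMP) and Nodal signalling, Nodal and Skil (0.42) of 25 were called higher and the inhibitors Bambi (-0.37) and Smad7 (-0.36) lower, with a median of 0.0040, and again 0 with only the 6 arrays. Of 22 Wnt genes, Cdx1, Tcf7l1 (0.55) and Fzd7 (0.32) were called higher and Fzd5 (-0.44) lower, with a median of -0.0076; with only the 6 arrays 1 was called. Among 18 Eph receptors and ephrins, Efnb3 rose by 0.62 ± 0.059, and Epha4 (-0.75) and Ephb3 (-0.28) were called lower, with a median of 0.0049. The calls of Dll1, Skil, Tcf7l1, Epha4 and Ephb3 each ended with only the 6 arrays and without RA 2 h replicate C, and those of Skil and Ephb3 without any one RA array.

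Of the Id genes, the usual BMP targets, Id4 was the one called. It fell by 0.72 ± 0.13, from 8.34, 8.56 and 8.16 to 7.53, 7.66 and 7.71 (limma, adjusted p = 0.0118). Id1, Id2 and Id3 were at 0.73, -0.73 and 1.13 and were not called. In Id3 the untreated signals were 10.02, 10.18 and 8.20, so replicate C was well under both others and all RA arrays (10.66, 10.60 and 10.54). Id3 was called higher without untreated replicate B or C. Id2 was called lower without replicate C. The call of Id4 ended without RA 2 h replicate A and with the mean of its probe sets, where the difference was -0.43.

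Among 17 germ line genes 3 were called higher and 1 lower, with a median of 0.076. Tfap2c rose by 0.83 ± 0.084, from 10.01, 10.09 and 10.07 to 10.96, 10.78 and 10.94 (limma, adjusted p = 2.13e-04), and the receptor Kit by 0.70 ± 0.096 (limma, adjusted p = 0.00200). Stra8, the RA-responsive gatekeeper of meiosis, had 9.72, 8.82 and 10.04 without RA and 11.06, 10.91 and 10.91 at 2 h, so it was already bright and its untreated arrays were scattered. Its rise of 1.43 ± 0.33 (limma, adjusted p = 0.0412) lost its call in 8 of 16 alternative fits, among them the fit of only the 6 arrays. Prdm1 (Blimp1) fell by 0.74 ± 0.14 (limma, adjusted p = 0.0190), which ended without RA 2 h replicate A or B.

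In the splicing kinases Clk and Srpk, 2 of 7 were called lower, Clk1 (0.43 ± 0.072) and Clk4 (0.33 ± 0.068), and 6 of 7 lay below 0, with a median of -0.33. Limma called 0 of them with only the 6 arrays. Of 23 Polycomb, DNA methylation and Tet genes, Dnmt3a was called higher and Cbx2 (-0.58) lower, with a median of -0.063. Of 14 super elongation complex and P-TEFb genes 1, Ccnt2 (-0.42), was called lower, with a median of -0.040. Of 20 hypoxia and glycolysis genes, Vegfa (0.90) was called higher and Hk2 (-0.59) lower, with a median of -0.0036. The calls of Cbx2, Ccnt2, Vegfa and Hk2 ended with only the 6 arrays, and that of Vegfa also without any one RA array, without untreated replicate A or B and with the mean of its probe sets.

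No member was called by limma in 2 lists of cell growth. All 17 cholesterol synthesis genes lay below 0, with a median of -0.12 and 5 at an unadjusted p under 0.05. The lowest was Dhcr7 at -0.26 (limma, adjusted p = 0.150). Without untreated replicate C 3 of them were called lower. The 20 mitosis and G2/M genes had a median of -0.0062, and 0 reached an unadjusted p under 0.05. Gapdh and Actb, common reference genes, were at 0.02 and under 0.01 in size.

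**Figure D3:**
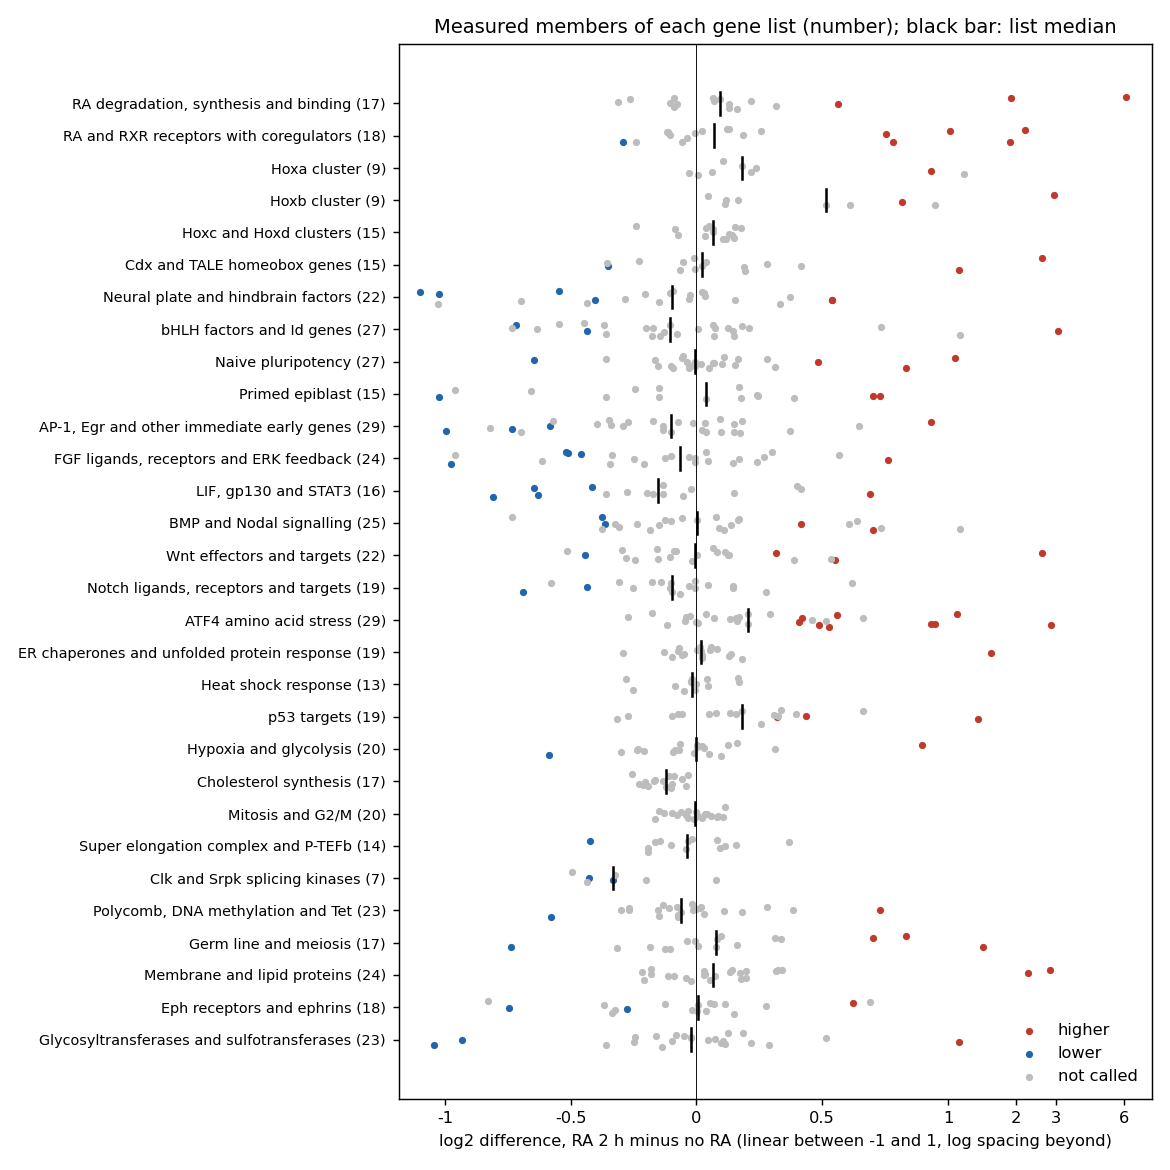
Each point is a measured member of a gene list, placed by its log2 difference (RA 2 h minus no RA) on an axis that is linear between -1 and 1 and log-spaced beyond, with red and blue for members called higher and lower, grey for those not called, and a black bar at the list's median. Points of the Hoxb list all lie above 0 and those of the cholesterol list all below, and the ATF4 list holds the most red points, 9.

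Among the rest of the 25 largest falls, the G protein regulator Rgs2 fell by 0.86 ± 0.16, the anion transporter Slco4c1 by 0.81 ± 0.15, the Toll pathway inhibitor Irak3 by 0.77 ± 0.15 and the kinase Map3k1 by 0.70 ± 0.11. Zfp608, Zfp217, Pnrc1, Iffo2, Fam110b, Lrig3, the kinase Stk17b and B3galnt1 were between -0.94 and -0.68. Stk17b had the tightest arrays, 10.31, 10.34 and 10.40 against 9.65, 9.64 and 9.64 (limma, adjusted p = 1.41e-05). The calls of Rgs2, Irak3, Zfp217, Lrig3, Map3k1 and B3galnt1 ended with only the 6 arrays, and that of Slco4c1 without RA 2 h replicate A or C. With the mean of probe sets the calls of Rgs2, Irak3, Lrig3, Map3k1 and Pnrc1 ended. Rgs2, Pnrc1 and Map3k1 each had 1 probe set above 0, at 0.18, 0.21 and 0.01.

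The cells carried ES cell markers at high level on all 6 arrays. The mean log2 level of the 9 markers was 12.8 to 12.9 on the untreated arrays and 12.8 on each RA array, 1 was called higher (Nanog) and 1 lower (Klf4). Feeder fibroblast markers were also present. Their mean level was 8.75, 9.13 and 8.41 on untreated arrays A, B and C and 8.90, 9.11 and 9.07 on the RA arrays, and 1 of 16 was under the median on all 6 arrays. Of the 16, limma called 0, with 5 at an unadjusted p under 0.05, and the median difference was 0.26, or 0.068 without untreated replicate C. Without untreated replicate B, 6 were called higher. Untreated replicate C was under the mean of A and B in 13 of 16, so feeder markers moved with that array. So did primitive endoderm markers, all 8 of which were lower in C than the mean of A and B. The median of C minus that mean was -0.13 for them and -0.50 for the feeder list. It was -0.25 for neural markers, with 3 of 5 lower in C. For ES cell, trophoblast and mesoderm markers it was 0.065, 0.061 and 0.18. The share of all genes lower in C is not given here, so these shifts are not shown to be particular to a cell type. The part of these cell types in the results was not tested. Col1a1, the defining collagen, was at 0.14 and the largest member, Dcn, at 1.17 with untreated signals of 6.97, 8.39 and 5.83. In bulk RNA, fewer cells of a type and less RNA per cell cannot be told apart.

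Markers of other lineages gave no call by limma: 0 of 8 for primitive endoderm (3 at an unadjusted p under 0.05), 0 of 8 for trophoblast (0), 0 of 5 for mesoderm (0) and 0 of 5 for neural cells (1). Their medians were 0.11, 0.098, -0.059 and 0.0051. Their mean levels ran from 6.59 to 7.09 for primitive endoderm and from 7.32 to 7.50 for trophoblast over the 6 arrays.

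The 2 h values were set beside those at 4 and 6 h, which are measured against the same untreated arrays. Hoxb1 was at 2.93, 5.45 and 5.69, and Csn3 at 2.20, 3.63 and 3.68, so both were part of the way up at 2 h. Tal2 ran 3.06, 2.08 and 1.24 and Cidea 2.83, 2.01 and 0.92, highest at 2 h. Of the 30 largest rises, 8 were called higher again from 2 to 4 h, 6 were called lower over that step, and 16 were not called. The 6 were Tal2, Cidea, Tmtc1, Plk3, Pptc7 and Cdc42ep3, and Pptc7 dropped by 0.65 ± 0.061 (limma, adjusted p = 4.44e-05). Tmtc1 ran 1.94, 1.36 and 1.91, and its step from 2 to 6 h was not called. The 30 largest rises were picked by their 2 h values, which favours a later drop, and the 2 h arrays serve in both comparisons.

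Of the 25 largest falls, 7 were called higher from 2 to 4 h, 5 lower and 13 not called. Hs3st3b1 had the largest return, 1.65 ± 0.11 (limma, adjusted p = 4.42e-06), from -1.12 at 2 h to 0.53 at 4 h against no RA. Gdap10 returned by 0.81 ± 0.096, Zfp217 by 0.89 ± 0.16 and Zfp608 by 0.59 ± 0.11, and Socs2, Iffo2 and Stk17b were the others. Gcnt2, Dll1, Jun, Egr1 and Fam110b fell further by 4 h, Gcnt2 to -1.54. At 6 h Gcnt2 was at -1.27 and Egr1 at -1.30, both still called lower than at 2 h. Dll1, Jun and Fam110b were then at -0.60, -0.72 and -0.75, and their steps from 2 to 6 h were not called. Nanog was at 0.48, 0.21 and 0.10 and Tfap2c at 0.83, 0.39 and 0.16 at 2, 4 and 6 h. Klf4 went from -0.64 to -1.16 and -1.23.

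**Figure D4:**
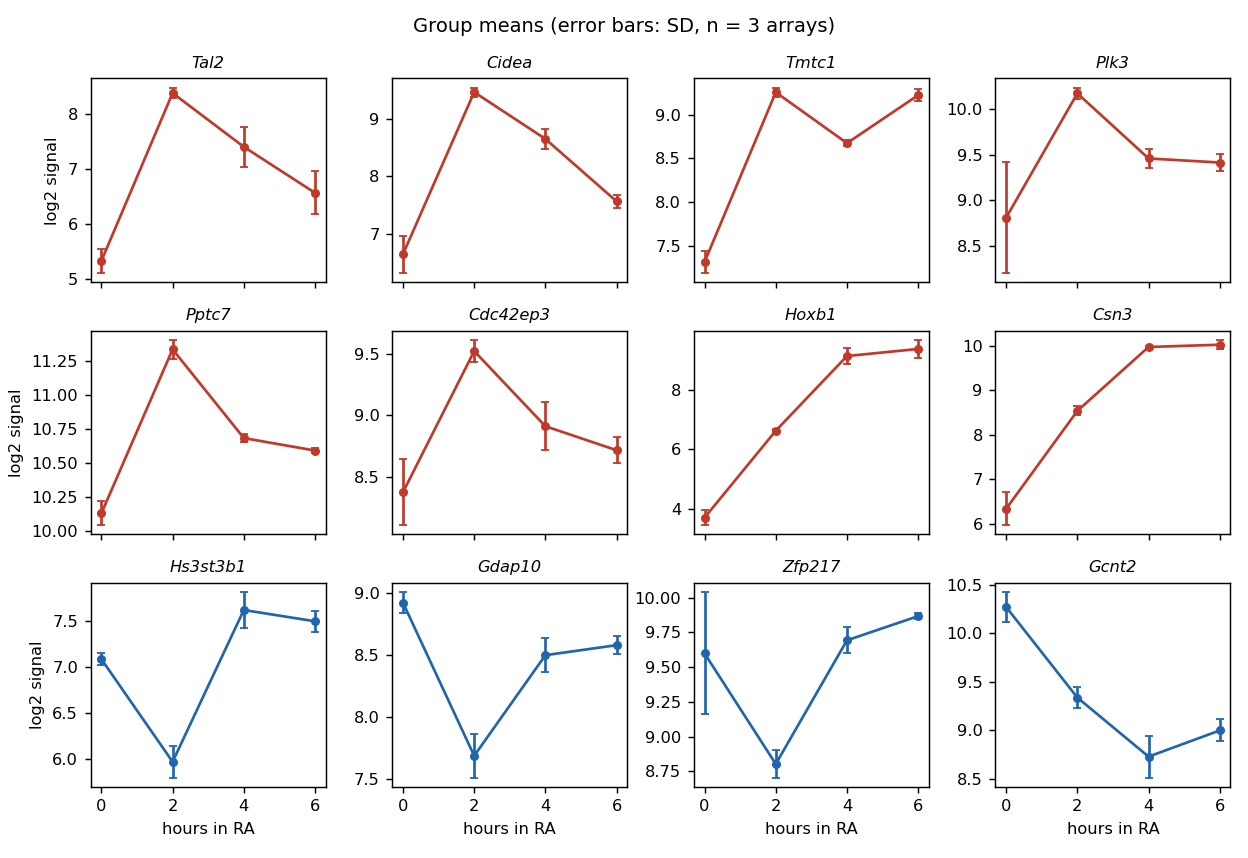
Mean log2 signal of the 3 arrays at 0, 2, 4 and 6 h in RA (error bars, SD), each gene on an axis of its own that does not start at 0, in red for genes called higher and blue for genes called lower at 2 h. The first 6 panels are the rises that were called lower from 2 to 4 h, and Hoxb1 and Csn3 went on rising. Hs3st3b1, Gdap10 and Zfp217 came back from a low at 2 h, while Gcnt2 was lowest at 4 h.

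Some called genes were neighbours. Of the 273 genes called higher, 25 (9.16%) lay beside another gene called higher in the RefSeq gene order, in 13 pairs, and of the 216 called lower 14 (6.48%) lay in 7 pairs. Of all 18032 genes placed in that order, 2.99% lay beside a gene called higher and 2.38% beside one called lower. Among the pairs, chosen for mention after their values were seen, were Tal2 with Tmem38b (0.37 ± 0.056), Camk2n1 with Mul1 (0.39 ± 0.078), 4931406H21Rik with Zmiz1 (0.94 ± 0.098) and Atf4 with Mief1 (0.40 ± 0.087). Where genes of a pair overlap, a probe set of one can read the other, and strand was not examined.

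Genes with further probe sets mostly moved the same way on them. Of 305 other probe sets of genes called higher, 270 (88.5%) had the same sign, 96 were called the same way and 0 the opposite way. Of 296 for genes called lower, 236 (79.7%) had the same sign, 34 were called the same way and 0 the opposite way. Taken one by one, 707 of 34958 probe sets were called, 389 higher and 318 lower, for 568 genes.

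The 44 genes called in every alternative fit include many already described, from Cyp26a1 to Olig2. Outside the named sets they include the Polycomb partner Aebp2 (1.09 ± 0.10), the Toll and interleukin-1 pathway kinase Irak2 (1.12 ± 0.12), the forkhead factor Foxp1 (0.92 ± 0.077), the cholesterol exporter Abca1 (0.86 ± 0.094) and Pmepa1 (0.96 ± 0.059), named after their values were seen. Foxp1 had 10.63, 10.41 and 10.42 without RA and 11.45, 11.40 and 11.37 at 2 h, and Aebp2 11.14, 11.06 and 10.66 and 12.06, 12.02 and 12.03, with no overlap. All 7 falls among the 44 were Olig2, Gdap10, Hs3st3b1, Zfp608, Iffo2, Fam110b and Stk17b.

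**Figure D5:**
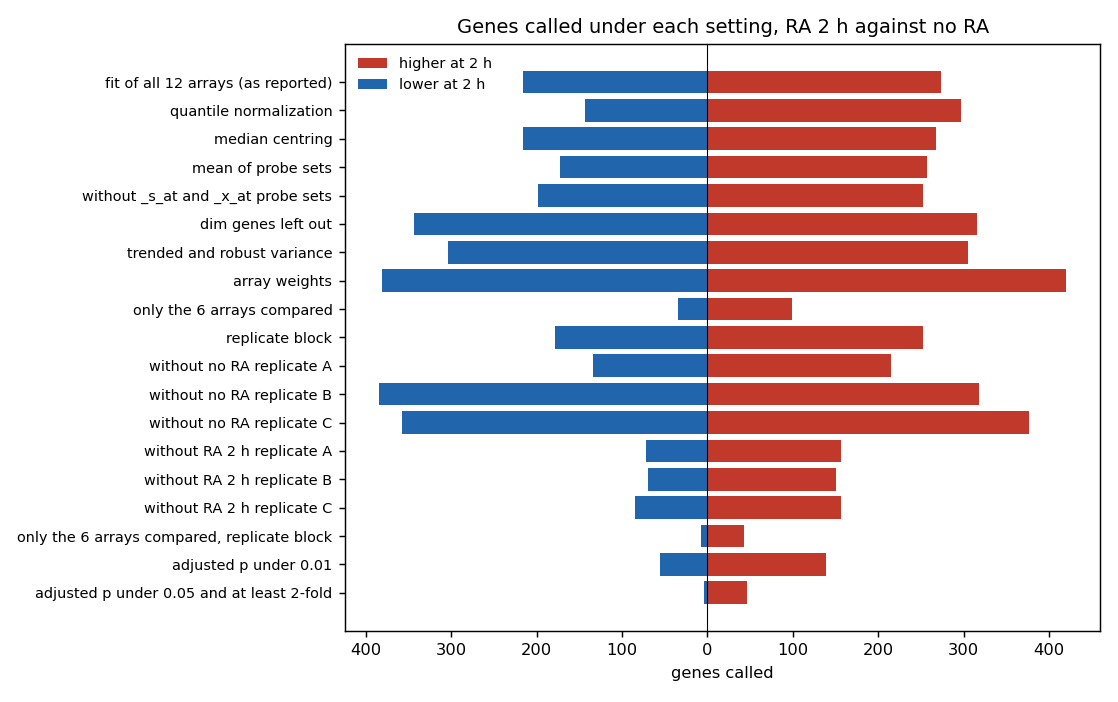
Bars give the number of genes called higher (red, to the right) and lower (blue, to the left) at 2 h under each setting, the top bar being the fit reported here with 273 and 216. Falls shrink more than rises with only the 6 arrays (99 and 35), and both sides grow when untreated replicate C is left out (376 and 358).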

How the data were processed

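RNA of 12 samples was hybridised to Affymetrix mouse arrays, 3 per group. The authors deposited log2 signal of 45101 probe sets for every array, the scale being read from the values. Per the submitters' processing notes, limma 3.4.3 was used. The normalization method is not given in the sources used here. The array medians lay between 6.05 and 6.10, and no further normalization was applied. Probe sets were named from the platform annotation (34958 with 1 gene, 932 with several, 9211 with none), and the brightest of those with 1 gene stood for each of 18194 genes. The number of arrays limits the precision.

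The model, run in R 4.3.3 with lmFit and eBayes of limma 3.58.1, had 1 mean for each of the 4 groups over all 12 arrays (8 residual degrees of freedom, 3.78 prior), with p-values adjusted by Benjamini and Hochberg over all genes. The script was tested on simulated data. The gene lists (36, with 570 measured genes) and the members were chosen with earlier results of these data known. Named were the 30 largest rises and 25 largest falls among called genes without overlap, up to 6 called members per list (or the 2 largest where fewer than 2 were called), and 50 fixed genes, 47 of them measured. Promoters came from RefSeq (GRCm38.p6).

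Alternatives changed the normalization, the probe set, a filter on dim genes, the variance model, array weights, the arrays in the fit, the replicate block and the threshold, and left out each array in turn. Nothing states that the replicate letters mark a shared culture or day, so the main fit had no replicate block. Deviations from the group means of same-lettered arrays correlated at 0.056, -0.041 and -0.0060 between no RA and RA 2 h. With 3 arrays per group, such values cannot show whether the letters pair the samples. Over all pairs of groups these values ran from -0.13 to 0.315, highest for C and next for A (0.266) between RA 4 h and RA 6 h, where B was at 0.057.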

Additional observations from a re-analysis of the deposited data

Results flagged for a closer look

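Among the named genes, 6 were lower at 2 h and higher at a later time against the same untreated arrays, with both values called and the step between the times called too (limma, all 12 arrays). Hs3st3b1 was at -1.12 after 2 h, at 0.53 after 4 h and at 0.41 after 6 h, the step from 2 to 4 h being 1.65 ± 0.11 (limma, adjusted p = 4.42e-06). Bcl3 was at -0.41 after 2 h, at 0.35 after 4 h and at 0.72 after 6 h, a step of 0.76 ± 0.095 (limma, adjusted p = 2.34e-04). Clk1 was at -0.43 after 2 h, at 0.39 after 4 h and at 0.52 after 6 h, a step of 0.82 ± 0.072 (limma, adjusted p = 3.46e-05), and its relative Clk4 was at -0.33, 0.25 and 0.28, a step of 0.58 ± 0.068 (limma, adjusted p = 1.58e-04). En2 was at -0.40 after 2 h, at 0.39 after 4 h and at 0.66 after 6 h, a step of 0.79 ± 0.096 (limma, adjusted p = 1.82e-04). Ncoa7 was at -0.29 after 2 h and at 0.29 after 6 h, and its step from 2 to 6 h was 0.59 (limma, adjusted p = 5.22e-05). The fall of Hs3st3b1 at 2 h was called in all 16 alternative fits. The falls of the other 5 ended with only the 6 arrays of the comparison. Over the 16 fits the 2 h call was lost in 11 for En2, 9 for Bcl3, 9 for Ncoa7, 6 for Clk4 and 2 for Clk1. The number of such reversals among all genes tested is not given here, so whether 6 is many or few cannot be judged. These 6 genes were picked in part by a low 2 h value, which favours a later return. The 2 h arrays also serve in both the 2 h difference and the step.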

How the results depend on the processing

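No call of a named gene turned its direction in any alternative. Of 108 named genes that were called, 33 kept their call wherever they could be tested, and 51 lost it with only the 6 arrays compared. Of 48 not called, 9 were called in 1 or more alternatives. The number of genes called went from 489 to 801 with array weights (420 higher, 381 lower), where untreated replicate C had the lowest weight, 0.177. It went to 134 with only the 6 arrays (99 and 35), which leaves 4 residual degrees of freedom, to 195 at an adjusted p under 0.01 (139 and 56) and to 50 when at least 2-fold was also asked (46 and 4). Quantile normalization gave 143 lower calls and leaving out dim genes 344; the cause was not tested. The share of higher calls was 55.8%, against 67.5% with quantile normalization, 73.9% with only the 6 arrays and 47.9% without dim genes. Leaving out 1 array gave 219 to 734 calls, 150 to 376 higher and 69 to 384 lower. With the replicate block 432 genes were called (253 and 179), 386 of them among the 489. With the block and only the 6 arrays, chosen after seeing the data, 51 were called (43 and 8), and 74 of the 108 named calls ended. Median centring, the mean of probe sets, leaving out probe sets with a cross-hybridization suffix and trended, robust variances kept the counts over all genes within 1.5 times. Among list counts, the mean of probe sets took Wnt from 4 to 2, Polycomb from 2 to 4, Clk and Srpk and hypoxia from 2 to 1, Hoxa and super elongation from 1 to 0, and cholesterol and heat shock from 0 to 1. Trended, robust variances took membrane and lipid from 2 to 4 and heat shock from 0 to 1. Low signal limits genes such as Hoxb1 and Hoxa4, whose untreated arrays lay under the median.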
